A study of Arabidopsis thaliana with 18 samples.

Results

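The transcripts described here are those of 10 Arabidopsis thaliana genes of sulfate uptake, transport and assimilation. They are the sulfate transporter genes SULTR1;1, SULTR1;2, SULTR2;1, SULTR4;1 and SULTR4;2, the APS reductase genes APR1, APR2 and APR3, and the low-sulfur response genes SDI1 and LSU1. Their rows were taken by gene identifier from count tables of 32833 genes, and all 10 were found and passed the filter on low counts, which left 21650 genes. RNA sequencing of poly(A) RNA from whole seedlings of the ecotype Col-0 gave 18 libraries, 3 in each of 6 groups. The als3-1 mutant, the sog1-7 mutant and the wild type were each grown under constant light on a soaked gel of pH 4.2 that held 1.5 mM or 0 mM AlCl3, and were harvested 84 h after sowing. ALS3 encodes a membrane protein needed for tolerance of aluminium (Al), and SOG1 encodes the transcription factor that heads the plant response to DNA damage. Each mutant is represented by a single allele, and the sulfate content of the gel is not given in the sources used here. The study compared the genotypes under Al to find targets of SOG1 linked to the arrest of root growth.

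Plants take up sulfate from the soil through proton-coupled transporters. SULTR1;1 and SULTR1;2 are the high-affinity carriers of the root epidermis and cortex, SULTR2;1 is a low-affinity carrier of the vasculature that serves movement from root to shoot, and SULTR4;1 and SULTR4;2 release sulfate from the vacuole. In the cell ATP sulfurylase turns sulfate into adenosine phosphosulfate (APS), APS reductase reduces it to sulfite, and sulfite reductase and O-acetylserine(thiol)lyase complete the way to cysteine. SDI1 and LSU1 belong to the genes that respond most widely to low sulfur, and SDI1 is known to restrain the synthesis of glucosinolates, which are sulfur-rich defence compounds.

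Libraries held 25.56 to 44.57 (median 35.09) in units of 1e6 counts. Levels are given as counts per 1e6 counts after TMM scaling (CPM). Before that scaling, 3 counts correspond to 0.0673 to 0.117 per 1e6 counts of a library. In replicate 2 of als3-1 at 1.5 mM and of sog1-7 at both concentrations, 3 ribosomal RNA genes took 0.0168% to 0.0285% of the counts, against 0.909% to 5.71% in the other 15 libraries. These 3 are called the low-rRNA libraries. The summed CPM of 7 photosynthesis genes, which mark the shoot, stood at 10010 in als3-1 0 mM replicate 2 against 11910 and 18190 in the rest of its group, and at 16820 in wild type 1.5 mM replicate 2 against 26960 and 29210. ALS3 stood at 2.56 to 7.88 CPM in als3-1 and 3.07 to 7.87 CPM in wild type, and SOG1 at 15.1 to 19.5 CPM in sog1-7 and 13.6 to 19.0 CPM in wild type, so neither transcript checks the genotype labels. Nothing in the labels says that samples of a group were separate cultures, so the errors measure only how these samples spread, and that spread may be technical.

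The 10 genes were selected on results of these data, among them the fall of SULTR1;1 with Al, and which other values entered the choice is not recorded. Their values are therefore given as a description, without p-values. A gene is said to pass when its adjusted p in edgeR's quasi-likelihood test, fitted over all 21650 genes, was under 0.05. For the 10 genes a pass, here and under the alternatives, describes these libraries and supports nothing further, since they were selected on them. The lists of other sulfur genes and of root and shoot markers were also drawn up with earlier results of these data known. Adjusted p printed for their genes are therefore descriptive as well.

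With Al, SULTR1;1 was lower past that threshold in every genotype, and SULTR2;1 and SULTR4;1 were higher past it in als3-1. The members that passed were 3 of 10 in als3-1, where 10.8% of all tested genes passed (4.56% as higher and 6.29% as lower). They were 1 of 10 in sog1-7, where 1.19% passed (0.448% as lower), and 1 of 10 in wild type, where 1.88% passed (0.988% as lower). Nothing is read from these shares, since values of the same contrasts may have entered the choice. The median log2 fold change over the 10 genes was 0.03 in als3-1, 0.02 in sog1-7 and -0.35 in wild type, against 0.02, -0.00477 and -0.00199 over all genes. The other 7 members did not pass in any of the 3 Al responses.

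**Figure D1:**
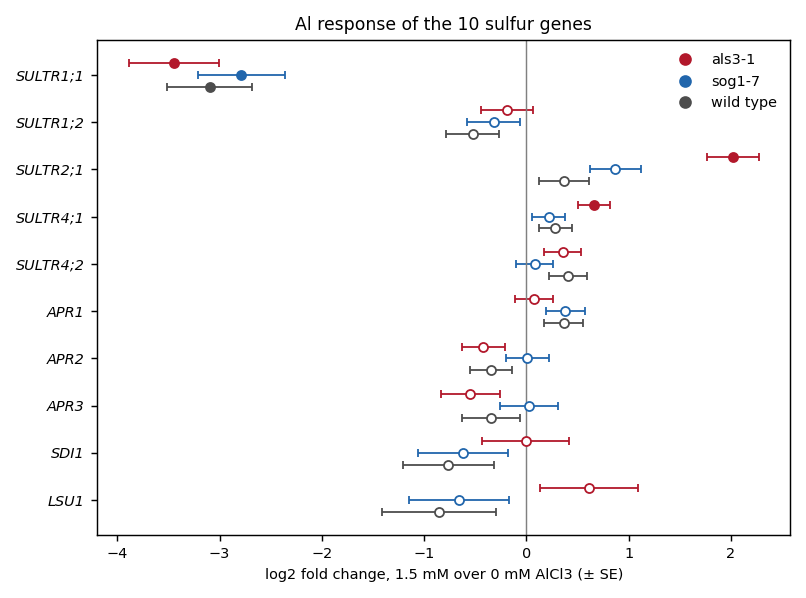
Log2 fold change of each of the 10 transcripts, 1.5 mM over 0 mM AlCl3, in als3-1, sog1-7 and wild type. Bars are SE of the fit with 3 libraries per group, filled points passed the all-gene threshold, and SULTR1;1 lies at -3.45, -2.79 and -3.10 while SULTR2;1 lies at 2.02 in als3-1.

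SULTR1;1 (AT4G08620, chromosome 4, 5500313 to 5506313) had 0.228, 0.570 and 0.425 CPM in the als3-1 libraries at 1.5 mM, against 4.996, 4.73 and 3.47 CPM at 0 mM. In sog1-7 it had 0.582, 0.529 and 0.514 CPM at 1.5 mM, against 3.30, 4.73 and 3.26 CPM at 0 mM. In wild type it had 1.80, 0.860 and 0.490 CPM at 1.5 mM, against 9.22, 12.8 and 5.48 CPM at 0 mM. In each genotype the highest library at 1.5 mM lay below the lowest at 0 mM. The same absence of overlap was met by 28.6% of all tested genes in als3-1, 13.8% in sog1-7 and 17% in wild type. The log2 fold change was -3.45 ± 0.44 (SE, n = 3 against 3) in als3-1, -2.79 ± 0.42 in sog1-7 and -3.10 ± 0.41 in wild type, which are levels 10.9-fold, 6.9-fold and 8.56-fold lower at 1.5 mM. It passed in every fit that left out 1 of the 18 libraries, and its log2 fold change without the low-rRNA libraries was -3.12 in als3-1, -2.93 in sog1-7 and -3.10 in wild type. It missed the threshold in wild type when only the 6 wild type libraries entered the fit, with a log2 fold change of -3.10. Without wild type 1.5 mM replicate 2 the wild type value was -3.76. The libraries at 1.5 mM rest on 11 to 65 counts each.

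No difference between genotypes in the size of this response passed. The response in als3-1 minus that in wild type was -0.35 ± 0.58 on the log2 scale, sog1-7 minus wild type was 0.31 ± 0.58, and als3-1 minus sog1-7 was -0.66 ± 0.60. With errors of this size a difference of 1 on the log2 scale could have been missed. At 0 mM the 3 als3-1 libraries and the 3 sog1-7 libraries all lay below the 3 wild type libraries, with log2 fold changes of -1.06 ± 0.37 and -1.28 ± 0.37. In these bulk samples fewer cells that express a gene and less of its RNA per cell cannot be told apart.

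Since this carrier is a root transcript, 10 other genes that mark root tissue are given beside it. Their median log2 fold change was -0.58 in als3-1, -0.11 in sog1-7 and -0.41 in wild type, and their summed CPM ran from 5650 to 9217 at 1.5 mM against 6345 to 8472 at 0 mM in als3-1, from 5695 to 8019 against 6340 to 8715 in sog1-7, and from 4836 to 5821 against 4951 to 7469 in wild type. PYK10, a beta-glucosidase of root ER bodies, makes up most of that sum. Without it the mean sum was 369 against 676 CPM in als3-1, 813 against 636 CPM in sog1-7 and 666 against 690 CPM in wild type. In als3-1 3 of the 10 root genes fell past the threshold, the beta-glucosidases BGLU21 and BGLU22 by 1.07 ± 0.20 and 1.32 ± 0.26 and the tonoplast aquaporin TIP2;3 by 4.17 ± 0.61 (adjusted p = 0.00295, 0.00437 and 0.000404, edgeR). Of all genes 6.29% passed as lower there. In sog1-7 and wild type 0 root genes passed in edgeR, with 2 and 3 at an unadjusted p under 0.05, and DESeq2 called TIP2;3 in both. Values were negative for 8 of the 10 in als3-1, 6 in sog1-7 and 9 in wild type. No root marker was at 0 in all libraries. Their part in the values of the carrier was not tested.

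SULTR1;2 (AT1G78000, chromosome 1, 29327515 to 29333220), the close relative that carries most uptake under ample sulfate, passed in no Al response. It had 44.5, 81.9 and 75.2 CPM in als3-1 at 1.5 mM and 77.2, 90.5 and 62.2 CPM at 0 mM, and 27.5, 33.2 and 41.9 CPM in sog1-7 at 1.5 mM and 36.6, 50.3 and 41.0 CPM at 0 mM. Wild type had 60.8, 49.7 and 43.3 CPM at 1.5 mM and 73.7, 98.0 and 49.7 CPM at 0 mM. The concentrations overlapped in each genotype, and the log2 fold changes were -0.19 ± 0.26, -0.32 ± 0.26 and -0.52 ± 0.26 in als3-1, sog1-7 and wild type. Per transcript length, SULTR1;1 made up 0.690% ± 0.145 of the summed FPKM of the pair in als3-1 at 1.5 mM, against 6.24% ± 0.641 at 0 mM (SD, n = 3 each). The share was 1.83% ± 0.417 against 8.91% ± 0.682 in sog1-7 and 2.25% ± 1.19 against 12.2% ± 1.04 in wild type. FPKM are the deposited fragments per kilobase and 1e6 fragments. In every genotype the shares at 1.5 mM lay below all those at 0 mM, and the second carrier was the more abundant of the pair in all 18 libraries. How reads that fit both genes were counted is not given, so values of such relatives carry that uncertainty.

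**Figure D2:**
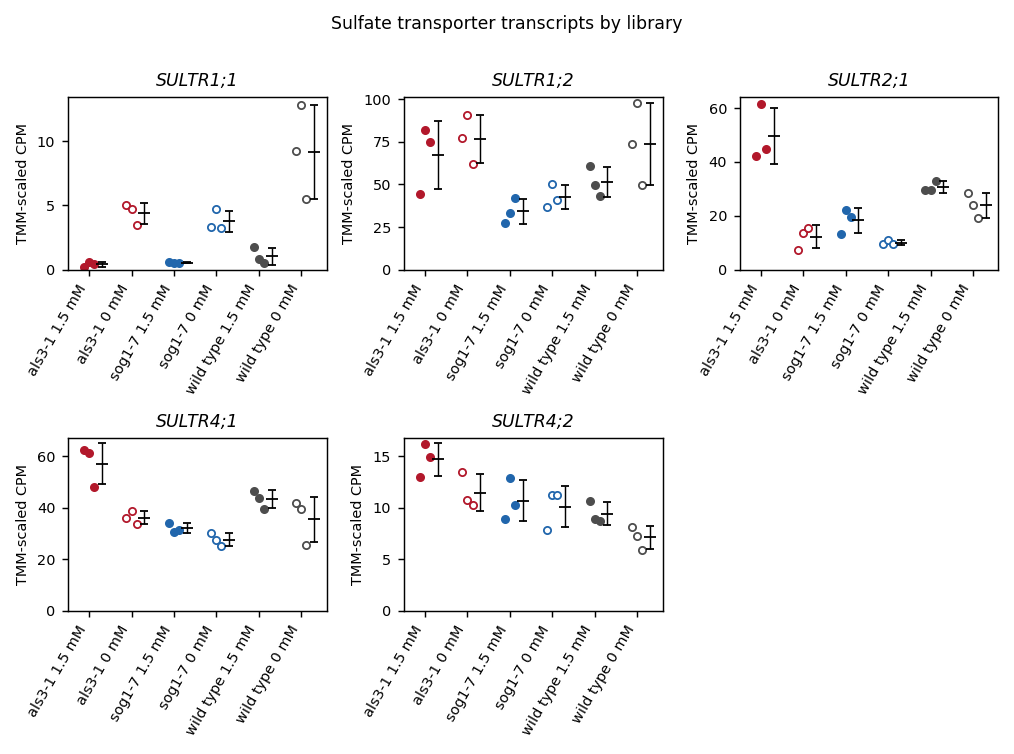
TMM-scaled CPM of the 5 sulfate transporter transcripts in each library (points, filled at 1.5 mM and open at 0 mM), with mean ± SD (n = 3) to the right and axes that start at 0. SULTR1;1 is low at 1.5 mM in all genotypes, and SULTR2;1 in als3-1 has 42.3 to 61.5 CPM at 1.5 mM against 7.35 to 15.5 CPM at 0 mM.

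The sequence before SULTR1;1 is where the sulfur-responsive element SURE, with the core GAGAC, was defined, and its matches are shown because this transcript moved most. The core was searched on both strands in the 3000 bases before the annotated gene start, in RefSeq's TAIR10.1 genome, whose nuclear gene positions match those of the deposited TAIR10 files for 99.95% of 32535 genes. Each line gives 45 bases on the gene's strand, with the core, or its reverse complement, in capitals.
Match 2605 bases upstream, chr4:5497688-5497732, plus strand: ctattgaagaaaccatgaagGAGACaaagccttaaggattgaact
Match 961 bases upstream, chr4:5499332-5499376, plus strand: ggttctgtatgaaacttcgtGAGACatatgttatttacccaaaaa
Match 559 bases upstream, chr4:5499734-5499778, plus strand: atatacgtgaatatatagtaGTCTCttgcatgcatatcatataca
The first of these starts 2772 bases before the start codon. The short core is common: 97.9% of 27440 upstream windows of this length hold at least 1 match, with a median of 4 matches. All 10 members hold it, from 2 matches before APR1 and 2 other members to 9 before LSU1. In the 250 bases next to the gene start it is present in 1 of the 10, SDI1, against 25.8% of 27443 genes. These matches are letters in a window and say nothing of binding.

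SULTR2;1 (AT5G10180, chromosome 5, 3193017 to 3197136) was higher with Al in als3-1. Its levels there were 42.3, 61.5 and 44.8 CPM at 1.5 mM, against 7.35, 13.7 and 15.5 CPM at 0 mM, a log2 fold change of 2.02 ± 0.25 or 4.06-fold. In sog1-7 it had 13.2, 22.3 and 19.5 CPM at 1.5 mM, against 9.46, 11.1 and 9.51 CPM at 0 mM, a log2 fold change of 0.87 ± 0.25 that did not pass, though it did with DESeq2 and without als3-1 0 mM replicate 2 (0.87 in each). In wild type it had 29.5, 29.5 and 33.1 CPM at 1.5 mM, against 28.3, 23.9 and 19.3 CPM at 0 mM, a log2 fold change of 0.37 ± 0.24 that did not pass. All 3 libraries at 1.5 mM lay above all 3 at 0 mM in each genotype, with the groups far apart in als3-1 and nearly touching in wild type. The pass in als3-1 held in every fit that left out 1 library. Without als3-1 0 mM replicate 2, the lowest of its group, the value was 1.76, and it was 2.12 when the low-rRNA libraries were left out.

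The difference of this response between genotypes lay at the edge of the threshold. The als3-1 response exceeded that of wild type by 1.66 ± 0.35 on the log2 scale and that of sog1-7 by 1.15 ± 0.35, and neither difference passed. The first did pass with the replicate number as a block (1.68), with DESeq2 (1.66 by that tool), and without als3-1 0 mM replicate 4 (1.85) or sog1-7 1.5 mM replicate 2 (1.66). Over the 10 genes, 0 differences of response passed for als3-1 minus wild type, sog1-7 minus wild type and als3-1 minus sog1-7, against 0.402%, 0.00462% and 1.15% of all genes in edgeR. At an unadjusted p under 0.05 the counts were 1, 0 and 1, and DESeq2 passed 1, 0 and 0. With the block the first count was 1, and 151 of all 21650 genes passed. The 3 differences share libraries.

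The genotypes differed at 0 mM too. Against wild type the log2 fold change of the gene was -0.96 ± 0.25 in als3-1, which did not pass, and -1.25 ± 0.25 in sog1-7, which passed in every fit that left out 1 library. No library of either mutant reached the lowest wild type library of 19.3 CPM. At 1.5 mM the als3-1 libraries all lay above the wild type libraries (0.69 ± 0.24) and the sog1-7 libraries all lay below them (-0.74 ± 0.24), and neither contrast passed. The summed shoot markers stood at 16150 to 21230 CPM in als3-1 at 1.5 mM against 10010 to 18190 CPM at 0 mM. In sog1-7 they stood at 10790 to 14110 CPM against 6310 to 10560 CPM, without overlap, and in wild type at 16820 to 29210 CPM against 23130 to 28630 CPM. The median log2 fold change with Al over the 7 was 0.40 in als3-1, 0.54 in sog1-7 and -0.11 in wild type, and 0 were called in edgeR in any genotype, with 0, 2 and 0 at an unadjusted p under 0.05 and 0 in each by DESeq2. Of the 7 shoot markers, 2 in als3-1 and 6 in sog1-7 passed as lower than in wild type at 0 mM. Of all genes 2.32% and 10.2% passed in these contrasts. At an unadjusted p under 0.05 the counts were 7 and 7, and DESeq2 called 6 and 6. Their median log2 fold change against wild type at 0 mM was -1.20 in als3-1 and -1.52 in sog1-7. Their part in the SULTR2;1 values was not tested.

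SULTR2;1 is also the member with a site for the microRNA miR395, which plants make under low sulfur and which targets this gene and ATP sulfurylase genes, so the sequences are shown. The 6 miR395 genes of the reference give 2 mature sequences that share the seed, bases 2 to 8, here in capitals.
ath-miR395a: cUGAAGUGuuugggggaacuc
ath-miR395b: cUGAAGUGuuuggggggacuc
In the sites that follow, written as DNA on the transcript strand, capitals mark the bases that pair with miR395a as in a Watson-Crick duplex.
SULTR2;1 site, coding, chr5:3193268-3193288, plus strand: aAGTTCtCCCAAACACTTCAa
ATPS4 site, coding, chr5:17591121-17591141, minus strand: GAGTTCCtCCAAACACTTCAt
ATPS1 site, coding, chr3:8113164-8113184, plus strand: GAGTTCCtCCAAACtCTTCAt
ATPS3 site, coding, chr4:8414958-8414978, minus strand: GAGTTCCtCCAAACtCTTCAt
Among the transcripts of the 10 members and 50 further sulfur genes, these 4 had 2 or 3 mismatches to miR395a, and the next best had 6. ATPS1 and ATPS3 carry the same 21 letters. The mature microRNA has no poly(A) tail and was not measured: the 6 precursor genes had 3 reads over all 18 libraries. In als3-1 the 3 ATP sulfurylase genes with a site had log2 fold changes of 0.22 ± 0.24 (ATPS1), -0.29 ± 0.19 (ATPS3) and 0.22 ± 0.21 (ATPS4), with adjusted p of 0.617, 0.382 and 0.565 in edgeR, beside 2.02 for the carrier.

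Of the vacuolar exporters, 1 passed. SULTR4;1 (AT5G13550) had 62.3, 61.4 and 47.9 CPM in als3-1 at 1.5 mM, against 36.1, 38.9 and 33.6 CPM at 0 mM, with no overlap and a log2 fold change of 0.66 ± 0.16, or 1.58-fold. That pass ended without als3-1 1.5 mM replicate 2, without als3-1 1.5 mM replicate 3 and without als3-1 0 mM replicate 4, with values of 0.59 to 0.77 over all fits that left out 1 library, and without the low-rRNA libraries (0.60). In sog1-7 it had 30.6 to 34.2 CPM at 1.5 mM against 25.2 to 30.4 CPM at 0 mM (0.22 ± 0.16), and in wild type 39.6 to 46.5 CPM against 25.5 to 41.8 CPM (0.28 ± 0.16). SULTR4;2 (AT3G12520) had 13.03 to 16.2 CPM in als3-1 at 1.5 mM against 10.2 to 13.5 CPM at 0 mM (0.36 ± 0.18), 8.95 to 12.9 CPM against 7.85 to 11.3 CPM in sog1-7 (0.08 ± 0.18) and 8.67 to 10.7 CPM against 5.92 to 8.15 CPM in wild type (0.41 ± 0.19). Its wild type groups did not overlap, yet it passed in no Al response. It overlaps 3 neighbouring genes in the annotation, at most 223 bases on the opposite strand, and whether counting used strand is not given.

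Per transcript length, in FPKM, the APS reductase transcripts were the most abundant of the 10 in each group mean, and none passed in an Al response. APR1 (AT4G04610) had 123, 121 and 128 CPM in als3-1 at 1.5 mM against 106, 118 and 131 CPM at 0 mM (0.07 ± 0.19), 92.5, 95.2 and 93.6 CPM against 74.7, 67.5 and 73.8 CPM in sog1-7 (0.38 ± 0.19), and 136, 105 and 85.1 CPM against 111, 82.7 and 59.5 CPM in wild type (0.36 ± 0.19). In sog1-7 the 2 concentrations did not overlap. APR2 (AT1G62180), the isoform that carries most of the APS reductase activity, had 28.4 to 36.9 CPM in als3-1 at 1.5 mM against 42.8 to 47.3 CPM at 0 mM (-0.42 ± 0.21). Its log2 fold changes in sog1-7 and wild type were 0.00887 ± 0.21 and -0.35 ± 0.21, with overlapping groups.

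APR3 (AT4G21990) had 52.5, 59.2 and 56.5 CPM in als3-1 at 1.5 mM against 80.2, 86.2 and 79.8 CPM at 0 mM, with no overlap and a log2 fold change of -0.55 ± 0.29. It had 0.02 ± 0.29 in sog1-7. In wild type it had 75.4, 57.5 and 41.5 CPM at 1.5 mM against 121, 57.6 and 43.7 CPM at 0 mM, a log2 fold change of -0.35 ± 0.29 that turned to 0.20 in the fit without wild type 0 mM replicate 2. Replicate 2 was the highest wild type library for all 3 APS reductase genes at both concentrations. APR1, APR2 and APR3 each overlap a gene on the opposite strand, by 21, 782 and 27 bases at most. The long noncoding partner of APR2 had no reads. Whether counting used strand is not given, so this does not show that APR2 lost none. In als3-1 at 1.5 mM APR2 had a mean of 33.5 CPM and 31.3 FPKM. APR1 had 124 CPM and 59.6 FPKM there, and APR3 had 56.1 CPM and 29.05 FPKM. Loss of APR2 reads in counting was not tested.

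SDI1 (AT5G48850) and LSU1 (AT3G49580) were scarce, with 35 to 232 and 10 to 133 counts per library. SDI1 had 4.22 to 5.34 CPM in als3-1 at 1.5 mM against 3.94 to 5.48 CPM at 0 mM, a log2 fold change of -0.0051 ± 0.43. It had 1.18 to 3.23 CPM against 2.62 to 3.82 CPM in sog1-7 (-0.62 ± 0.44) and 1.22 to 3.43 CPM against 1.39 to 4.93 CPM in wild type (-0.76 ± 0.45). LSU1 had 2.75, 2.09 and 2.13 CPM in als3-1 at 1.5 mM against 0.382, 1.40 and 2.74 CPM at 0 mM (0.61 ± 0.48). The als3-1 0 mM libraries of LSU1 thus spread over more than their whole distance to the 1.5 mM group. In sog1-7 it had 0.769, 1.39 and 0.841 CPM against 1.14, 1.83 and 1.75 CPM (-0.66 ± 0.49), and in wild type 0.443, 0.374 and 0.455 CPM against 0.914, 1.01 and 0.403 CPM (-0.85 ± 0.56). No Al response of either gene passed, and the errors of about 0.5 allow changes of 1 on the log2 scale.

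**Figure D3:**
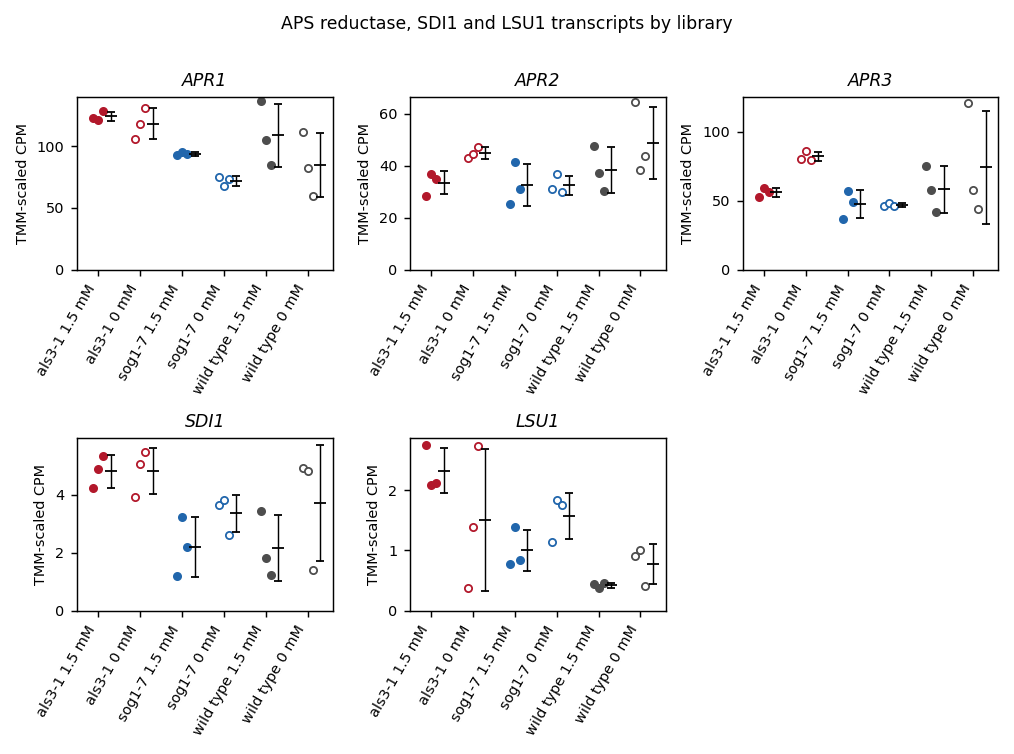
TMM-scaled CPM of APR1, APR2, APR3, SDI1 and LSU1 in each library (points, filled at 1.5 mM and open at 0 mM), with mean ± SD (n = 3) to the right and axes that start at 0. The concentrations overlap in most panels, and LSU1 has 2.09 to 2.75 CPM in als3-1 at 1.5 mM against 0.374 to 0.455 CPM in wild type at 1.5 mM.

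Set against wild type at 1.5 mM, LSU1 was the member that differed most in als3-1. All 3 als3-1 libraries lay above all 3 wild type libraries, with a log2 fold change of 2.44 ± 0.53, or 5.44-fold. It passed in 16 of the 18 fits that left out 1 library, and not without wild type 1.5 mM replicate 2 or wild type 1.5 mM replicate 3 (2.30 to 2.51 over the 18 fits). It was 1 of 10 members to pass in this contrast, where 5.58% of all genes did (2.55% as higher), and 5 members did not overlap, as 24.5% of all genes did not. With the replicate block, under which 2510 of all 21650 genes passed instead of 1207, 4 members passed: LSU1, SULTR4;1 (0.40 ± 0.16) and SULTR4;2 (0.64 ± 0.18) as higher and SULTR1;1 (-1.41 ± 0.46) as lower in als3-1. The values in brackets are those of the fit without the block. SULTR1;1 overlapped between the groups, since wild type 1.5 mM replicate 4 had 0.490 CPM. The higher level of LSU1 was not particular to als3-1. At 1.5 mM it was 2.33-fold higher in sog1-7 than in wild type, without overlap (0.769 to 1.39 against 0.374 to 0.455 CPM). At 0 mM it was 1.97-fold higher in als3-1, with overlap, and 2.035-fold higher in sog1-7. These 3 contrasts did not pass for LSU1. The wild type libraries at 1.5 mM rest on 16, 10 and 13 counts of it.

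The sog1-7 seedlings had less of 2 members at 0 mM than wild type, SULTR1;1 and SULTR2;1, where 10.2% of all genes passed (4.92% as lower). The groups did not overlap for 4 members, nor for 28.7% of all genes. For SULTR1;1 (-1.28 ± 0.37) the pass ended without the low-rRNA libraries (-1.19) and in 9 of the 18 fits that left out 1 library, which were those without als3-1 0 mM replicate 3, wild type 0 mM replicates 2 and 3, wild type 1.5 mM replicate 3, each of the 3 sog1-7 0 mM libraries, and sog1-7 1.5 mM replicates 3 and 4. The values ran from -1.55 to -0.96. With the replicate block, under which 4124 of all 21650 genes passed instead of 2211, 4 members passed, SULTR1;2 (-0.79 ± 0.26) and SULTR4;1 (-0.36 ± 0.16) being added as lower, both with groups that overlapped. The values in brackets are those of the fit without the block. At 1.5 mM 0 of 10 members passed between sog1-7 and wild type, against 7.4% of all genes in edgeR, and 4 members did not overlap, against 29.3% of all genes. At an unadjusted p under 0.05 the count was 5, DESeq2 passed 1, and the replicate block passed 2 (and 3611 of all 21650 genes), SULTR2;1 (-0.74 ± 0.24) and SULTR4;1 (-0.43 ± 0.16), both lower in sog1-7. These values with ± also come from the fit without the block.

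Between als3-1 and wild type at 0 mM 0 of 10 members passed, against 2.32% of all genes in edgeR, and 3 did not overlap, against 21.9% of all genes. The count was 4 at an unadjusted p under 0.05 and 2 by DESeq2. It was also 2 with the replicate block (which passed 1595 of all 21650 genes), SULTR2;1 as lower (-0.96 ± 0.25) and SULTR4;2 as higher in als3-1 (0.69 ± 0.18), and 2 without the low-rRNA libraries. The values with ± are those of the fit without the block.

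Between als3-1 and sog1-7 at 1.5 mM, 3 of 10 members passed, all higher in als3-1, where 6.69% of all genes passed (2.72% as higher). Of the 7 other SULTR genes 0 passed in edgeR, with 2 at an unadjusted p under 0.05 and 0 by DESeq2. SULTR2;1 was higher by 1.44 ± 0.25, SULTR1;2 by 0.97 ± 0.26 and SULTR4;1 by 0.83 ± 0.16 on the log2 scale, or 2.71-fold, 1.96-fold and 1.78-fold. None of the 3 overlapped between the groups, which held for 7 members and for 23.2% of all genes. The first and the last passed in all 18 fits that left out 1 library. SULTR1;2 did not pass without als3-1 1.5 mM replicate 3 or 4, wild type 1.5 mM replicate 3 or any of the 3 sog1-7 1.5 mM libraries (0.81 to 1.20), nor without the low-rRNA libraries (1.06). The 2 mutants were not compared in a fit at 0 mM. Without Al, SULTR1;2 had 62.2 to 90.5 CPM in als3-1 against 36.6 to 50.3 CPM in sog1-7, without overlap. SULTR4;1 had 33.6 to 38.9 CPM against 25.2 to 30.4 CPM, also without overlap. For SULTR2;1 the mutants overlapped at 0 mM (7.35 to 15.5 CPM against 9.46 to 11.1 CPM). Of the other members, SDI1 and LSU1 were higher in als3-1 by 1.13 ± 0.44 and 1.22 ± 0.48 without overlap and did not pass, and SULTR1;1 was the only one of the 10 with a negative value, at -0.44 ± 0.47.

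Per transcript length the 10 genes spanned more than 2 orders of magnitude. The highest group mean was 59.6 FPKM for APR1, 40.4 for APR3 and 40.0 for APR2, then 24.0 for SULTR1;2, 20.6 for SULTR4;1, 17.7 for SULTR2;1, 4.83 for SULTR4;2, 4.05 for LSU1, 3.46 for SDI1 and 2.96 for SULTR1;1. APR3 and APR2 were not separated by their spread, nor was LSU1 from either of its neighbours in this order. SULTR1;2 (19.9 to 26.6 FPKM), SULTR4;1 (15 to 25.2 FPKM) and SULTR2;1 (13.9 to 21.5 FPKM) overlapped as well. The libraries of SDI1 (3.26 to 3.61 FPKM) lay within the range of SULTR1;1 (1.73 to 4.08 FPKM). From its lowest to its highest group mean SULTR1;1 ranged over 19.1-fold, LSU1 over 6.33-fold and SULTR2;1 over 4.95-fold, and each of the other 7 over at most 2.42-fold. Among the 6 groups SULTR1;1 was lowest in als3-1 at 1.5 mM, with 0.154 ± 0.0640 FPKM, next in sog1-7 at 1.5 mM, with 0.202 ± 0.0230, and highest in wild type at 0 mM, with 2.96 ± 1.18 FPKM (SD, n = 3 each). The first and second of these overlapped, as did als3-1 and sog1-7 at 0 mM (1.60 ± 0.293 and 1.36 ± 0.347 FPKM).

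**Figure D4:**
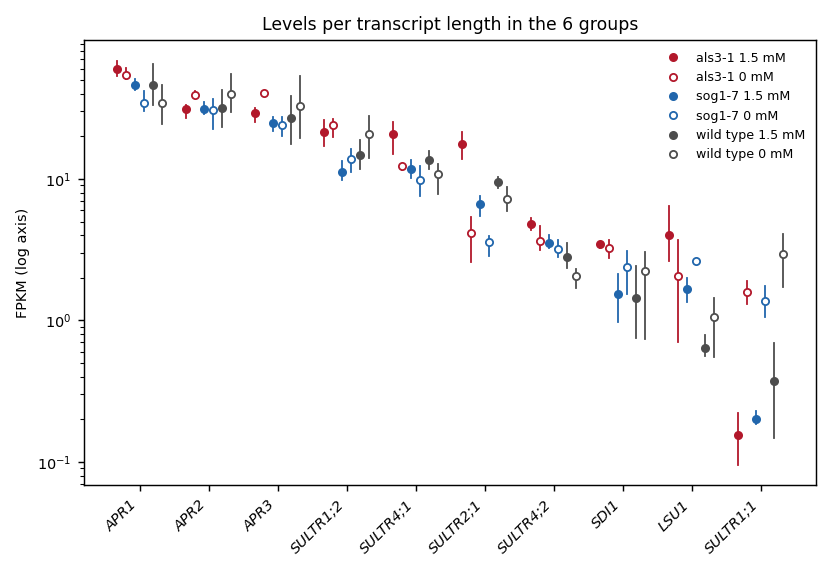
Deposited FPKM of the 10 transcripts on a log axis in the 6 groups, where points are means of 3 libraries (filled at 1.5 mM, open at 0 mM) and lines run from the lowest to the highest library. The 3 APS reductase genes are highest, and SULTR1;1 spans from 0.154 FPKM in als3-1 at 1.5 mM to 2.96 FPKM in wild type at 0 mM.

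Within groups the values of most member pairs rose and fell together in these libraries. Deviations of log2 CPM from the group mean were positively correlated for 44 of the 45 gene pairs, with a median r of 0.50 over 18 libraries that share scaling, depth and harvest. The closest pairs were APR1 with APR3 (0.86), APR2 with APR3 (0.84), SULTR1;1 with SULTR1;2 (0.80), APR3 with SDI1 (0.79) and SULTR2;1 with LSU1 (0.79). The lowest value was that of SULTR1;1 with LSU1 (-0.009). Single libraries weigh on some pairs. In als3-1 0 mM replicate 2 the deviation was -0.66 for SULTR2;1 and -1.54 for LSU1. In wild type 0 mM replicate 2 it was 0.45 for APR1 and 0.85 for APR3. These are descriptions of 18 libraries and carry no test. Pairs of other genes were not correlated in this way, so whether members go together more than other genes was not tested.

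Across all genes, the 5 whose log2 CPM were most like SULTR1;1 over the 18 libraries were GLR2.3, a glutamate receptor-like channel (r = 0.96), AT2G25260, annotated as a hydroxyproline O-arabinosyltransferase-like protein (0.96), AT2G14510, of a leucine-rich repeat kinase family (0.95), STS, a stachyose synthase (0.95), and AT2G37750, uncharacterized (0.95). Their log2 fold changes with Al were -6.04 ± 0.60, -0.85 ± 0.14, -4.07 ± 0.32, -2.84 ± 0.29 and -1.18 ± 0.21 in als3-1, so the sizes differed. At 1.5 mM in als3-1 GLR2.3 had a mean of 0.0713 CPM and AT2G14510 0.201 CPM, so their sizes rest on very few counts. The 5 genes were picked for likeness to SULTR1;1 over these same libraries, so their falls with Al support nothing further. In all, 60 genes had an r above 0.9.

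Of 50 other genes of sulfur metabolism, all of which passed the filter, 9 changed with Al in als3-1, 2 in sog1-7 and 4 in wild type (adjusted p under 0.05 in edgeR), beside 10.8%, 1.19% and 1.88% of all genes. Their median log2 fold change was 0.22, 0.09 and 0.06. Of 7 other genes of the SULTR family 3, 2 and 2 rose in als3-1, sog1-7 and wild type, and none fell past the threshold.

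**Figure D5:**
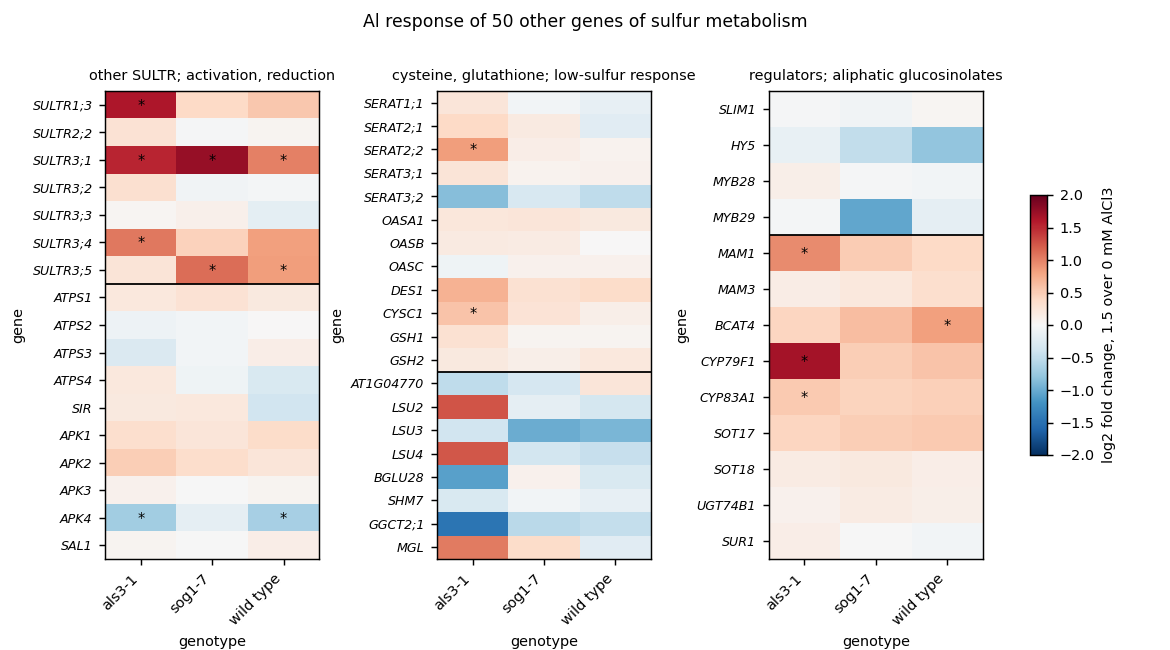
Log2 fold change with Al, 1.5 mM over 0 mM AlCl3, of 50 other sulfur genes (rows) in als3-1, sog1-7 and wild type (columns), where red is higher at 1.5 mM, and an asterisk marks an adjusted p under 0.05. SULTR3;1 is marked in all 3 genotypes, and the low-sulfur response genes are marked in none.

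SULTR3;1, a sulfate carrier of the chloroplast envelope, rose in every genotype. It had 7.20, 5.73 and 5.43 CPM in als3-1 at 1.5 mM against 2.14, 1.96 and 2.24 CPM at 0 mM, 6.21, 3.82 and 4.58 CPM against 1.66, 1.16 and 1.55 CPM in sog1-7, and 5.42, 6.99 and 7.14 CPM against 2.94, 3.69 and 3.04 CPM in wild type. The groups did not overlap in any genotype. The log2 fold changes were 1.53 ± 0.20, 1.74 ± 0.21 and 1.01 ± 0.20 (adjusted p = 0.000175, 0.000306 and 0.0142, edgeR). The wild type call ended without wild type 0 mM replicate 2 or 4 and when replicate 3 or 4 of wild type at 1.5 mM was left out, and the adjusted p over all alternatives there ran from 0.000342 to 0.156.

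SULTR3;5, which acts with SULTR2;1 in the root vasculature, rose by 1.12 ± 0.13 in sog1-7 and 0.83 ± 0.13 in wild type (adjusted p = 0.000259 and 0.00298, edgeR) and had 0.26 ± 0.13 in als3-1 (adjusted p = 0.236). It had 36.0, 28.1 and 31.5 CPM in als3-1 at 1.5 mM against 27.1, 26.5 and 26.2 CPM at 0 mM, where sog1-7 had 36.1, 26.3 and 28.9 CPM against 16.0, 14.02 and 11.9 CPM. Wild type had 29.7, 26.9 and 28.0 CPM at 1.5 mM against 16.7, 15.4 and 15.5 CPM at 0 mM. The als3-1 level at 0 mM exceeded wild type at 0 mM by 0.75 ± 0.13 (adjusted p = 0.00903, edgeR). In als3-1 the genes that rose were instead SULTR1;3, a phloem carrier (1.61 ± 0.31, adjusted p = 0.0035), and SULTR3;4 (1.06 ± 0.22, adjusted p = 0.00602), a carrier best known for phosphorus distribution. SULTR3;4 had 0.82 ± 0.23 in wild type with an adjusted p of 0.0883, and 0.0117 with the replicate block. For these genes the difference of the response between als3-1 and wild type had an adjusted p of 0.514 (SULTR1;3) and 0.854 (SULTR3;4).

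In the activation branch, the APS kinase gene APK4 fell in als3-1 by 0.69 ± 0.15 and in wild type by 0.67 ± 0.15 (adjusted p = 0.00591 and 0.0272, edgeR), and the wild type call ended without replicate 2 or 4 of either wild type group. It had 3.75 to 4.09 CPM in als3-1 at 1.5 mM against 6.12 to 6.42 CPM at 0 mM. APK4 was 1 of 10 genes of sulfate activation and reduction to pass in als3-1 and in wild type, where 10.8% and 1.88% of all genes passed. Among 12 genes of cysteine and glutathione synthesis, 2 rose in als3-1, the serine acetyltransferase gene SERAT2;2 (0.84 ± 0.20, adjusted p = 0.0139) and the beta-cyanoalanine synthase gene CYSC1 (0.57 ± 0.14, adjusted p = 0.0161). Of all genes 4.56% passed as higher there. The SERAT2;2 call ended without als3-1 0 mM replicate 2 or als3-1 1.5 mM replicate 3, and the CYSC1 call without als3-1 0 mM replicate 4 or als3-1 1.5 mM replicate 3. In sog1-7 and in wild type 0 of the 12 passed, also at an unadjusted p under 0.05 and by DESeq2. With the replicate block GSH1, which makes the first committed step to glutathione, also rose in als3-1 (0.30, adjusted p = 0.0522 without and 0.018 with the block).

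The median log2 fold change of 9 aliphatic glucosinolate genes was 0.43 in als3-1, 0.45 in sog1-7 and 0.41 in wild type, and 0 differences of response between genotypes passed (0 also at an unadjusted p under 0.05 and by DESeq2). In als3-1, where 4.56% of all genes passed as higher, 3 rose: MAM1 of side chain elongation (0.94 ± 0.24, adjusted p = 0.018), and CYP79F1 and CYP83A1 of the core pathway (1.67 ± 0.48 and 0.52 ± 0.15, adjusted p = 0.0362 and 0.0344, edgeR). In wild type, where 1.88% of all genes passed, 1 rose, the branched-chain aminotransferase gene BCAT4 (0.81 ± 0.16, adjusted p = 0.0118), whose call ended without wild type 0 mM replicate 3. In sog1-7 0 of the 9 passed in edgeR, with 3 at an unadjusted p under 0.05, and DESeq2 called 1, BCAT4. With the replicate block BCAT4 also passed in als3-1 (0.43, adjusted p = 0.0441) and in sog1-7 (0.62, adjusted p = 0.0374). The MAM1 call ended without als3-1 0 mM replicate 2 or als3-1 1.5 mM replicate 2 or 3, that of CYP79F1 without any als3-1 library but 1.5 mM replicate 4, and that of CYP83A1 without als3-1 0 mM replicate 2 or 3 or als3-1 1.5 mM replicate 3 or 4. CYP79F1 has a near-identical tandem copy, so its counts are uncertain.

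The 8 low-sulfur response genes outside the 10, among them LSU2, LSU3, LSU4, BGLU28, SHM7, GGCT2;1 and MGL, gave 0 calls in each Al response in edgeR. At an unadjusted p under 0.05 the counts were 4 in als3-1, 0 in sog1-7 and 0 in wild type, and DESeq2 called 2, 0 and 0, the 2 being GGCT2;1 and LSU4. In als3-1 their values pointed both ways: LSU2 and LSU4 at 1.25 ± 0.54 and 1.25 ± 0.40, and BGLU28 and GGCT2;1 at -1.09 ± 0.40 and -1.46 ± 0.54 (adjusted p = 0.162, 0.0596, 0.104 and 0.103). With the replicate block BGLU28 passed as lower (adjusted p = 0.0322). The 4 regulators, SLIM1, HY5, MYB28 and MYB29, gave 0 calls in each Al response by edgeR and by DESeq2, with counts of 0, 1 and 1 at an unadjusted p under 0.05 in als3-1, sog1-7 and wild type.

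Several of these genes differed by genotype. CYP79F1 had 4.25, 4.88 and 0.908 CPM in sog1-7 at 0 mM, against 42.7, 44.7 and 11.5 CPM in wild type, a log2 fold change of -3.275 ± 0.52 (adjusted p = 0.00128, edgeR). At 1.5 mM the log2 fold change was -3.345 ± 0.51 for sog1-7 against wild type and 2.76 ± 0.50 for als3-1 against sog1-7 (adjusted p = 0.00213 and 0.00365). In sog1-7 at 0 mM 7 of the 50 genes differed from wild type, beside 10.2% of all genes, SULTR3;2 as higher (1.15 ± 0.29, adjusted p = 0.0191), and SULTR3;1 (-1.15 ± 0.21, adjusted p = 0.00324), OASB (-0.62 ± 0.14, adjusted p = 0.00892), CYSC1 (-0.54 ± 0.14, adjusted p = 0.0242), SERAT2;1 (-0.59 ± 0.17, adjusted p = 0.0429), CYP83A1 (-0.65 ± 0.15, adjusted p = 0.0128) and CYP79F1 as lower. The calls of SULTR3;1, OASB and CYP79F1 held in every fit that left out 1 library. That of SULTR3;2 ended without wild type replicate 2 or sog1-7 replicate 4, that of CYSC1 without replicate 3 or 4 of either genotype, and that of CYP83A1 without wild type replicate 3, all at 0 mM. That of SERAT2;1 ended in 9 fits, those without als3-1 0 mM replicate 3, als3-1 1.5 mM replicate 4, wild type 0 mM replicates 3 and 4, wild type 1.5 mM replicate 3, and replicates 3 and 4 of both sog1-7 groups. Between sog1-7 and wild type at 0 mM 6 of the 7 shoot markers were called lower in sog1-7, with a median log2 fold change of -1.52 over the 7, and their part in these calls was not tested.

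At 1.5 mM 5 of the 50 differed between sog1-7 and wild type, beside 7.4% of all genes. There 3 of the 7 shoot markers were called lower in sog1-7 (median -0.92), and their part was not tested. SULTR3;2 was higher (1.12 ± 0.29, adjusted p = 0.0292), and MYB29, a regulator of aliphatic glucosinolates (-1.58 ± 0.39, adjusted p = 0.0227), CYP79F1, CYP83A1 (-0.67 ± 0.15, adjusted p = 0.0149) and OASB (-0.47 ± 0.14, adjusted p = 0.0475) were lower. All these calls but that of CYP79F1 ended when 1 library was left out, that of SULTR3;2 without wild type 1.5 mM replicate 2 or 3 or sog1-7 1.5 mM replicate 3 or 4, MYB29 without wild type 1.5 mM replicate 2 or sog1-7 1.5 mM replicate 3 or 4, CYP83A1 without wild type 1.5 mM replicate 3 or sog1-7 1.5 mM replicate 3, and OASB without any library other than als3-1 1.5 mM replicates 2 and 3 and sog1-7 0 mM replicate 2. Between als3-1 and wild type 2 of the 50 differed at 0 mM, beside 2.32% of all genes, SULTR3;5 as higher and SERAT2;1 as lower (-0.82 ± 0.18, adjusted p = 0.0255). The SERAT2;1 call ended without any als3-1 0 mM library or wild type 0 mM replicate 3 or 4. At an unadjusted p under 0.05 the count was 16, and DESeq2 also called SULTR1;3, CYSC1, CYP79F1, CYP83A1, BGLU28, MYB28 and MYB29. The median of the 7 shoot markers in this contrast was -1.20, and their part was not tested. At 1.5 mM 1 differed, beside 5.58% of all genes, BCAT4 as lower in als3-1 (-0.56 ± 0.16, adjusted p = 0.0485). That call ended without any library other than als3-1 0 mM replicates 2 and 4. The count was 9 at an unadjusted p under 0.05, and DESeq2 also called SULTR3;2, GSH1, LSU2 and CYP83A1. The median of the 7 shoot markers was -0.40 at 1.5 mM, and their part was not tested.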

How the data were processed

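Per the labels' protocols, the authors made directional libraries from poly(A) RNA of whole seedlings. The deposited counts are whole reads per gene, written by featureCounts 2.0.0 per the file headers. The deposited FPKM go with Cufflinks 2.2.1 per the submitters' processing notes, which list STAR 2.7.3a, FastQC 0.11.7, TAIR10 and DESeq2 1.36.0 besides. Not given in the sources used here are the strand setting, the rule for reads with several positions and the release of the annotation.

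Counts were tested with edgeR 4.0.16 (quasi-likelihood, robust, TMM scaling, filterByExpr by group) with 1 mean per group over all 18 libraries and Benjamini-Hochberg adjustment over 21650 genes. The common biological coefficient of variation was 0.214. On simulated counts for the wild type response over 21372 genes, 61% of 2-fold and 100% of 4-fold changes were recovered. The simulation gave every gene the same dispersion and held no pairing of samples, so these shares do not hold for single genes here. FPKM entered limma as log2(FPKM + 1) or log2(FPKM + 0.1). Alternatives were RLE scaling, no filter, DESeq2, fits to the compared groups alone, FPKM, a replicate block, and leaving out single libraries or the low-rRNA libraries. Libraries with the same number in the 2 groups of a genotype deviated together (9 of 9 correlations over 0.1, from 0.205 to 0.728, and 18 of 18 libraries correlated best with their own number), so the numbers pair the samples. The printed errors and passes come from the fit without the block, which leaves out this pairing. With the block more of all genes passed in every contrast. The Al response in wild type gave 803 instead of 408, and als3-1 against wild type at 0 mM gave 1595 instead of 502. A gene given as not passing may therefore pass with the block. Passes or adjusted p with the block stand beside results of members, and of other sulfur genes in the Al responses, whose call the block changes. A value printed there with ± is that of the fit without the block. For other sulfur genes between genotypes at 0 mM or 1.5 mM no blocked values are given. Members and lists were chosen with earlier results of these data known. Named genes were all members, every other sulfur gene called in any contrast, the summed root and shoot marker lists, and the 5 genes most like SULTR1;1. Sequences came from RefSeq TAIR10.1. Protein sequences were not used here. The library totals limit precision, and floors cover counting error only.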

Additional observations from a re-analysis of the deposited data

Results flagged for a closer look

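SULTR3;5 responded to Al differently in als3-1 and sog1-7 in the test of the difference itself. Of the 50 other sulfur genes, 1 passed for als3-1 minus sog1-7, where 1.15% of all genes passed. For als3-1 minus wild type and sog1-7 minus wild type 0 of the 50 passed, against 0.402% and 0.00462% of all genes. The als3-1 response minus the sog1-7 response was -0.86 ± 0.18 on the log2 scale (adjusted p = 0.0304, edgeR, and 0.00367 with the replicate block). All 3 libraries at 1.5 mM lay above all 3 at 0 mM in both mutants. At 1.5 mM the mutants overlapped, with means of 31.86 CPM in als3-1 and 30.44 CPM in sog1-7. At 0 mM they did not overlap, with means of 26.63 and 13.98 CPM. Wild type had means of 28.19 CPM at 1.5 mM and 15.86 CPM at 0 mM. The call ended in 9 fits that left out 1 library, those without any als3-1 0 mM library, als3-1 1.5 mM replicate 3 or 4, sog1-7 1.5 mM replicate 2 or 4, or sog1-7 0 mM replicate 3 or 4, and the adjusted p over all alternatives ran from 0.000997 to 0.589.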

How the results depend on the processing

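Of the counts of genes recomputed under the alternatives, 381 stayed within 1.5 times the main count and 61 did not, and no called value changed sign. With only the compared groups in the fit, members called were 0 for the Al response in wild type (main 1) and 1 for sog1-7 against wild type at 0 mM (main 2), and other sulfur genes called were 2 for the Al response in wild type (main 4), 0 in sog1-7 (main 2) and 0 for als3-1 minus sog1-7 (main 1). DESeq2 called 2 members for the Al response in sog1-7 (main 1), 1 for als3-1 minus wild type (main 0), 2 for als3-1 against wild type at 0 mM (main 0), 3 at 1.5 mM (main 1) and 1 for sog1-7 against wild type at 1.5 mM (main 0). With the replicate block the members called were 1 for als3-1 minus wild type, 2 for als3-1 against wild type at 0 mM and 4 at 1.5 mM, and 4 for sog1-7 against wild type at 0 mM and 2 at 1.5 mM, and the block changed no other count of members by over 1.5 times. Without the low-rRNA libraries, als3-1 against wild type gave 2 members at 0 mM and 2 at 1.5 mM. On FPKM with a pseudocount of 1, als3-1 against wild type at 1.5 mM gave 3 members, and other sulfur genes called were 0 for the Al response in wild type and 0 for als3-1 minus sog1-7. With a pseudocount of 0.1 those 2 counts were also 0, als3-1 against wild type at 1.5 mM gave 2 members, and sog1-7 against wild type at 0 mM gave 1.

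Leaving out each library in turn gave 1 to 2 members for the Al response in sog1-7, 0 to 1 for als3-1 minus wild type, 0 to 1 for als3-1 and 1 to 5 for sog1-7 against wild type at 0 mM, and 0 to 3 and 0 to 1 at 1.5 mM. Other sulfur genes ran from 2 to 5 in wild type, 4 to 11 in als3-1 and 0 to 1 for als3-1 minus sog1-7. The cause of these moves was not tested. On the FPKM scale the median of all genes in mutant against wild type contrasts was shifted by 0.12 to 0.218. Depth limits SULTR1;1 at 1.5 mM, LSU1 and SDI1 most.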
